A study of Mus musculus with 4 samples.

Results

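The genes described here were 9 genes of the intestinal antibody system, *Ms4a1*, *Cd79a*, *Cd79b*, *Cr2*, *Pax5*, *Jchain*, *Pigr*, *Xbp1* and *Prdm1*, measured in mouse colon. They were found on the array by their gene names, with *Jchain* under its older name *Igj*. The names gave 13 of the 39429 probes that were not controls, and 9 of the 22371 genes that could be matched. Every probe is reported. The 4 arrays each held RNA pooled within 1 group of male mice, *Pla2g3*+/+ with saline vehicle, *Pla2g3*-/- with saline vehicle, *Pla2g3*+/+ with azoxymethane (AOM) and *Pla2g3*-/- with AOM. AOM, a carcinogen that induces colon tumors in rodents, was given at 10 mg/kg into the peritoneum once a week for 6 weeks, and colons were taken 28 weeks after the last dose. All mice were B6.129 of backcross generation 3 and aged 42 weeks by the labels, which give 3 to 5 mice in a pool and call the material of the AOM groups colorectal cancer tissue. *Pla2g3* encodes the secreted phospholipase sPLA2-III, and the deletion was in the whole animal.

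B cells carry the antigen receptor, whose signaling chains are CD79A and CD79B, together with the surface protein CD20 (*Ms4a1*) and the complement receptor CR2. On becoming plasma cells, they lose the PAX5 program, turn on Blimp-1 (*Prdm1*) and XBP1, and in the gut secrete mostly IgA joined by the J chain (*Jchain*). Epithelial cells then take up the joined IgA through the polymeric immunoglobulin receptor (*Pigr*) and carry it into the lumen. The members thus stand for B cells, for plasma cells and for the epithelial side of IgA transport.

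A scaled level is the signal of a probe over the 75th percentile of all signals on its array, and levels are compared between arrays within a probe only. Member values are scaled levels, whereas a value called a signal is the intensity before scaling, and every fold and log2 ratio is of scaled levels. Each group had 1 array, which allows neither a replicate check nor a test, so a difference is set against 2-fold and against the same measure over all genes. The Feature Extraction software gives each spot an error, which came to 0.20 log2 units for a ratio between bright spots and covers the spot but not the mice. Where a signal was not well above background, the ratio is a bound and is written as "at least". Since RNA of whole tissue was measured, fewer cells of a type and less RNA per cell cannot be told apart.

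The targeted gene went against the genotype labels. The brightest of 3 *Pla2g3* probes had a ratio of *Pla2g3*-/- over *Pla2g3*+/+ of 1.23-fold with vehicle and 6.01-fold after AOM, and the others were also higher. Every direction below follows the labels. Where the probes lie relative to the deleted part is not given in the sources used here, and a probe outside it would not check the labels. The array labelled *Pla2g3*+/+ after AOM stood apart in tissue markers. The summed level of 7 colon epithelium markers was 412 with vehicle in *Pla2g3*+/+ and 471.5 in *Pla2g3*-/-, but 49.9 and 283 after AOM, and that of 7 smooth muscle markers was 509.9, 535, 31.0 and 487 in the same order. The array labelled *Pla2g3*-/- with vehicle stood apart in 7 pancreatic acinar genes, with a summed level of 9.30 against 0.36 in *Pla2g3*+/+. Markers of B cells and of plasma cells were well above background on both vehicle arrays, 4 of 4 and 5 of 5.

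*Pigr* is the member for which the identity of the probe matters most, and the ends of its probes are shown for that reason. One probe lies at the *Pigr* locus, on chromosome 1 of mm9 from 132748041 to 132748100, and 34 of its 60 bases are A or G. The other, which is the brighter, is listed by the array at 3452 bases into the same transcript but placed on chromosome 14 from 70241922 to 70241981. All 60 of its 60 bases are A or G, and its last 15 bases occur in 51 of the 39429 probes, whereas those of the first occur in 1. The array lists 4 RefSeq accessions for it, which belong to *Pigr*, *Rhox8* and *Zfp811*. The last 30 bases of each are given 5′ to 3′, with the repeated GAA in capitals.
Pigr probe at its own locus: tcaagagtgcctagtgagatagactagcgt
Pigr probe of the repeat: aaGAAGAAGAAGAAGAAGAAGAAGAAGAAg
What share of the signal of the repeat probe came from *Pigr* was not tested, and values of both probes are given.

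Promoters are shown for *Cd79a*, *Jchain* and *Pigr*, since the first and second of these moved one way and *Pigr* the other in the AOM comparison. The sequences are the 250 bases before the RefSeq start of each gene in GRCm38.p6, written 5′ to 3′ on the strand of the gene. They are *Cd79a* at chr7:24897247-24897496 (+), *Jchain* at chr5:88527898-88528147 (-) and *Pigr* at chr1:130826434-130826683 (+). Capitals mark matches, on either strand, to CAGGTG, an E-box bound by E2A, and to ACGTG, the core of sites bound by XBP1.
Cd79a upstream: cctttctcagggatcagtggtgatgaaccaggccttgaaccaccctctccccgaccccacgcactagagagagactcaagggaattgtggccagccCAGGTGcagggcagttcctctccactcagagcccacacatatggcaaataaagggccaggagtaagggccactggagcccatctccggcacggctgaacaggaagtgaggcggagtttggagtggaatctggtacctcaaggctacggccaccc
Jchain upstream: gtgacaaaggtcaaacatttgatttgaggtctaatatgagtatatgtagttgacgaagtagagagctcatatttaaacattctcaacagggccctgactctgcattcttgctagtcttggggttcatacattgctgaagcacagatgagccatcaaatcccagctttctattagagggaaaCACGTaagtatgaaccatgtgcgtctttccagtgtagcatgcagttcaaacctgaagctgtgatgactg
Pigr upstream: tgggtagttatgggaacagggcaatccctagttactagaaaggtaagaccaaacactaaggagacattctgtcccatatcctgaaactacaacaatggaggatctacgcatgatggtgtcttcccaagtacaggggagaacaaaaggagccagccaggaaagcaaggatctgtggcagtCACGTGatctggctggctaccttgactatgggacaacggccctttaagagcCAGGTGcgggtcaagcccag
The E-box letters began 154 bases before the start of *Cd79a* and 20 bases before that of *Pigr*. The ACGTG core began 69 bases before the start of *Jchain*, and in *Pigr* it was read on both strands of CACGTG, overlapping, 71 bases before the start. Of the 7 members with a promoter in the table, 5 (*Cd79a*, *Cr2*, *Pigr*, *Xbp1* and *Prdm1*) held CAGGTG and 3 (*Pax5*, *Jchain* and *Pigr*) held ACGTG. Among all 32851 promoters of the same length, these shares were 17.2% and 16.6%. The octamer ATGCAAAT and CCCNNGGG, the letters of an EBF site, were in 0 of the 7 windows and in 1.60% and 11.8% of all promoters. These matches are letters only and were not tested as sites. The promoters of *Ms4a1* and *Cd79b* were not analysed here.

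With vehicle, none of the members passed 2-fold between the genotypes. Of 16392 genes with a value, 1.93% passed 2-fold upward and 1.32% downward in the pool labelled *Pla2g3*-/-, so that 0 of 9 members in either direction was near the background. The median log2 ratio of all genes was -0.02. After AOM the picture differed. Of the 9 members, 6 were over 2-fold lower in the pool labelled *Pla2g3*-/- (*Ms4a1*, *Cd79a*, *Cd79b*, *Cr2*, *Jchain* and *Prdm1*), 2 were over 2-fold higher (*Pigr* and, by a bound, *Pax5*), and *Xbp1* was within 2-fold. Over 17195 genes, 12.9% were lower and 15.1% higher, with a median of 0.03.

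**Figure D1:**
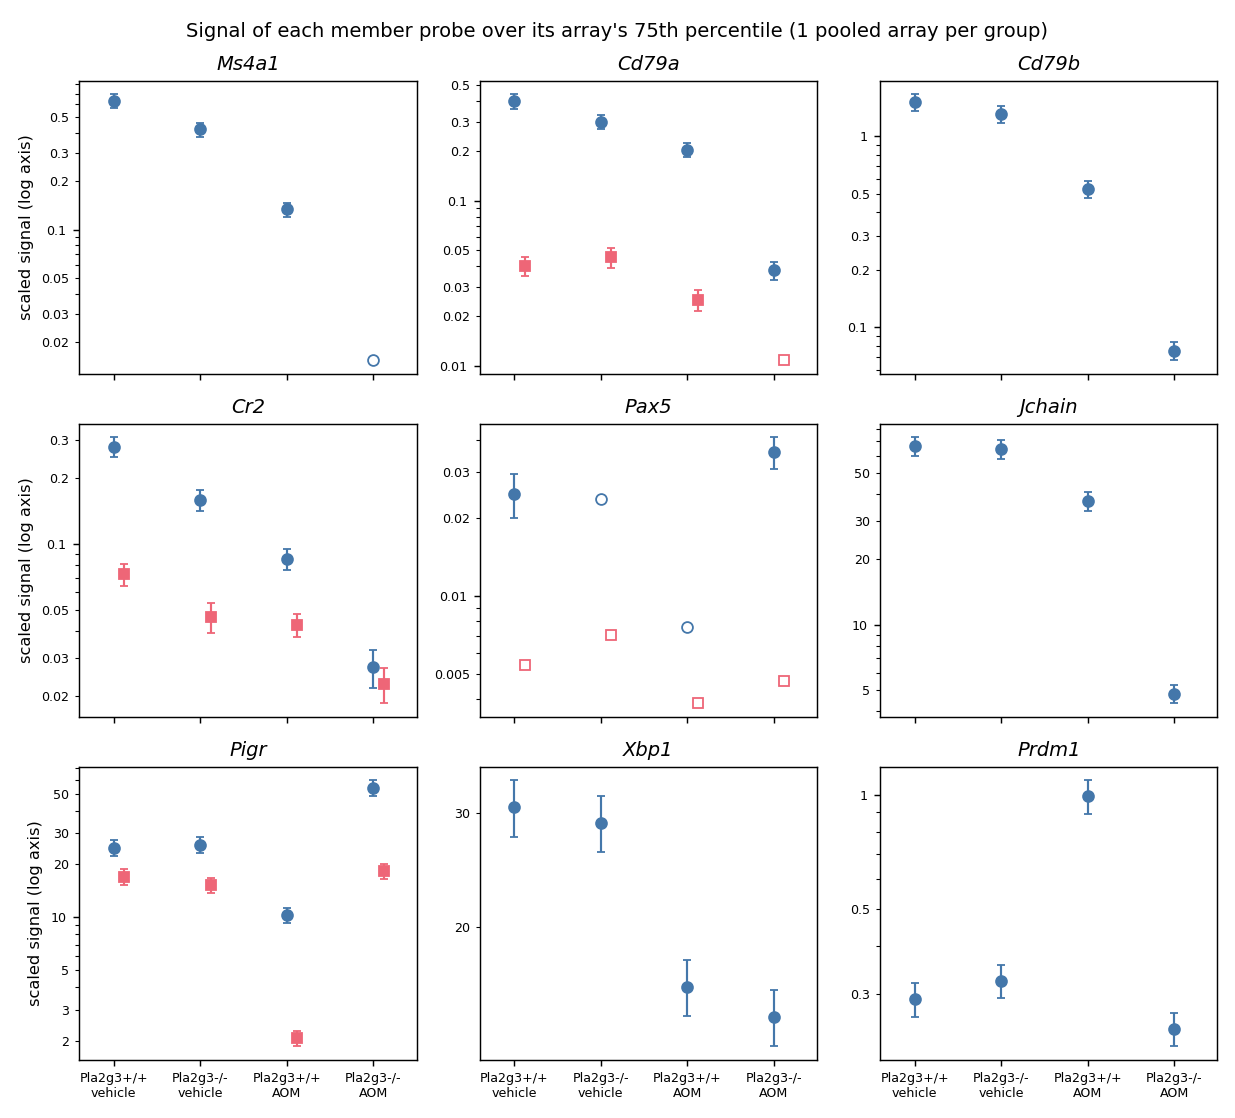
Scaled level of every member probe on the 4 arrays, on a log axis, with 1 panel per gene and its own range in each panel. Blue circles are the only or the brighter probe and red squares the dimmer probe (for *Pigr*, the circle is the repeat probe and the square the probe at its own locus). Bars are the error that Feature Extraction gives the spot, and open symbols, drawn without bars, are signals not well above background. *Ms4a1*, *Cd79a*, *Cd79b*, *Cr2* and *Jchain* are lowest on the AOM array labelled *Pla2g3*-/-, whereas *Pigr* is lowest on the AOM array labelled *Pla2g3*+/+.

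*Ms4a1*, the gene for the B cell surface protein CD20 (chromosome 19 of mm9, 11325367 to 11325426), had scaled levels of 0.629 in *Pla2g3*+/+ and 0.420 in *Pla2g3*-/- with vehicle, and 0.133 and 0.0154 after AOM. The last of these, a signal of 18.0, was not well above background. *Ms4a1* was thus at least 8.68-fold lower in the pool labelled *Pla2g3*-/- after AOM. With vehicle its log2 ratio was -0.58, past the spot error of 0.206.

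*Cd79b*, the beta chain of the receptor's signaling pair (chromosome 11, 106172780 to 106172839), had levels of 1.51 and 1.31 with vehicle and 0.531 and 0.0754 after AOM. After AOM it was 7.04-fold lower in the pool labelled *Pla2g3*-/-, with a log2 ratio of -2.82 and a spot error of 0.216. All 4 signals were well above background. *Cd79a*, the alpha chain (chromosome 7, 25686823 to 25686882), had levels of 0.398, 0.300, 0.203 and 0.0379 in the same order of groups. It was 5.37-fold lower in the pool labelled *Pla2g3*-/- after AOM. By scaled level, both chains were thus highest with vehicle and lowest in the pool labelled *Pla2g3*-/- after AOM. Before scaling, the *Cd79a* signal was highest in *Pla2g3*+/+ after AOM, at 266 against 257 in *Pla2g3*+/+ with vehicle. A dimmer *Cd79a* probe, whose ends span 25684357 to 25684614, had levels of 0.0403, 0.0455, 0.0251 and 0.0108. The last was not above background, which left a bound of at least 1.71-fold lower that does not reach 2-fold. With vehicle the log2 genotype ratio of the brighter *Cd79a* probe was -0.41, past its spot error of 0.206. That of the dimmer probe (0.18, error 0.28) and that of *Cd79b* (-0.203, error 0.204) were not past it.

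*Cr2*, the complement receptor that B cells share with follicular dendritic cells, has 2 probes on chromosome 1. The brighter (196965532 to 196965591) had levels of 0.279 and 0.159 with vehicle and 0.0852 and 0.0274 after AOM, which is 3.11-fold lower in the pool labelled *Pla2g3*-/- after AOM and 1.76-fold lower with vehicle. The dimmer (196963012 to 196963071) had 0.0725, 0.0463, 0.0424 and 0.0227, or 1.57-fold and 1.87-fold lower. Both probes put the pool labelled *Pla2g3*-/- below *Pla2g3*+/+ under both treatments, but only the brighter passed 2-fold, and only after AOM. With vehicle their log2 ratios, -0.81 and -0.65, were past the spot errors of 0.216 and 0.277.

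*Pax5*, the transcription factor that holds B cell identity, was at the detection limit. Its brighter probe (chromosome 4, 44658421 to 44658480) had levels of 0.0247 and 0.0235 with vehicle and 0.00760 and 0.0359 after AOM, of which those of *Pla2g3*-/- with vehicle and of *Pla2g3*+/+ after AOM were not well above background. The AOM ratio was at least 2.85-fold higher in the pool labelled *Pla2g3*-/-, opposite to the other B cell members. The second probe, whose ends span 44550354 to 44582908, was not above background on any of the 4 arrays, with signals of 3.49 to 5.47. No *Pax5* ratio was thus measured on both sides.

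*Jchain*, the joining chain of IgA and IgM polymers (chromosome 5, 88949919 to 88949978), was far above background on every array. Its levels were 66.5 and 64.5 with vehicle and 37.1 and 4.81 after AOM. The vehicle pools differed by 1.03-fold, within the spot error. After AOM, *Jchain* was 7.71-fold lower in the pool labelled *Pla2g3*-/- (log2 ratio -2.95, spot error 0.204).

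*Prdm1*, which encodes Blimp-1 and is also active in T cells, macrophages and epithelium, had its probe on chromosome 10 from 44157089 to 44157148. Its levels were 0.290 and 0.325 with vehicle and 0.991 and 0.243 after AOM. By scaled level, *Prdm1* was the single member highest in *Pla2g3*+/+ after AOM. Before scaling, the signals of *Jchain* (48531), *Cd79a* (266) and *Xbp1* (21144) were also highest there. So was that of the dimmer *Cr2* probe (55.5), but not that of the brighter. After AOM, *Prdm1* was 4.08-fold lower in the pool labelled *Pla2g3*-/-. *Xbp1*, a factor of the secretory program in plasma cells and goblet cells alike (chromosome 11, 5425816 to 5425875), had levels of 30.7, 29.0, 16.2 and 14.5. Its genotype ratio was within 2-fold under both treatments, at log2 -0.08 with vehicle and -0.15 after AOM, both smaller than the spot error of 0.204. Without scaling the AOM value was -0.32 and with quantile normalization -0.37, both past that error.

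*Pigr* moved the other way. By the probe at its own locus, the levels were 17.0 and 15.2 with vehicle and 2.06 and 18.2 after AOM. The low value was that of *Pla2g3*+/+ after AOM, and the other 3 pools lay between 15.2 and 18.2. *Pigr* was therefore 8.84-fold higher in the pool labelled *Pla2g3*-/- after AOM and 1.12-fold lower with vehicle. By the repeat probe the levels were 24.7, 25.7, 10.2 and 54.1, which is 5.28-fold higher in that pool after AOM. After AOM both probes were higher in the pool labelled *Pla2g3*-/-. With vehicle their log2 ratios were -0.16 at the locus and 0.06 for the repeat probe, neither past the spot error.

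The genotype ratio after AOM can be set against that with vehicle where all 4 signals were well above background. The difference of the log2 ratios was -2.90 for *Jchain*, -2.61 for *Cd79b*, -2.19 for *Prdm1*, -2.02 for *Cd79a* and -0.82 for the brighter *Cr2* probe, while the dimmer *Cr2* probe gave -0.25. It was -0.07 for *Xbp1*, 3.30 for *Pigr* by the probe at its locus and 2.34 by the repeat probe. With 1 array in each of the 4 groups, this difference has no test.

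**Figure D2:**
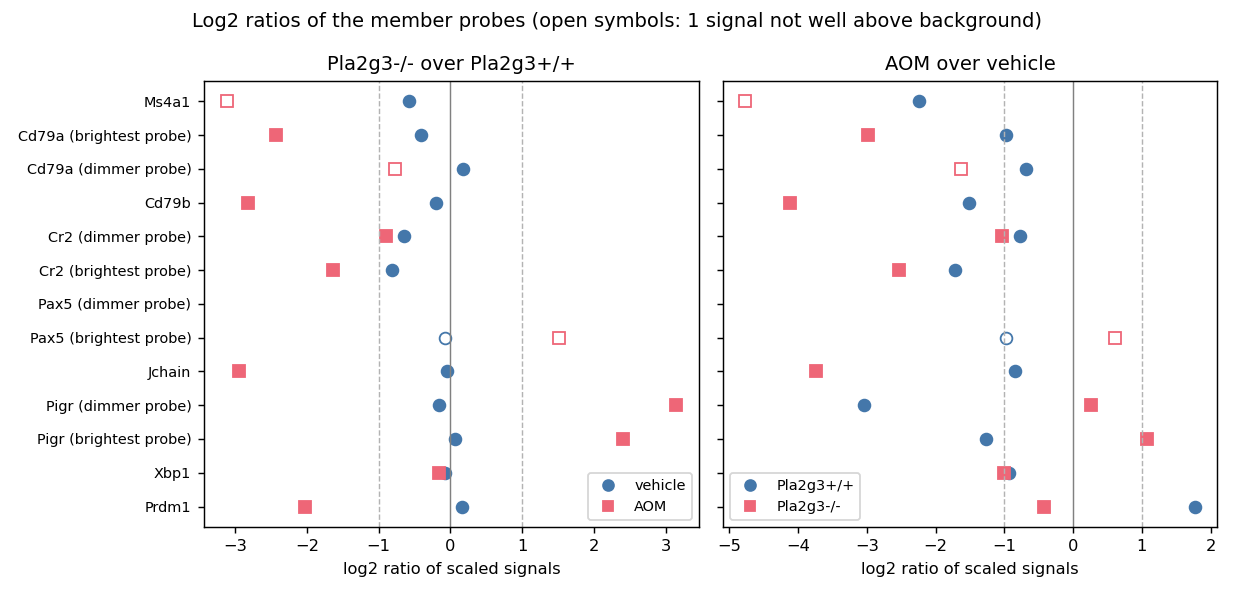
Log2 ratio of scaled signals for every member probe, on the left *Pla2g3*-/- over *Pla2g3*+/+ with vehicle (blue circles) and after AOM (red squares), on the right AOM over vehicle in *Pla2g3*+/+ (blue circles) and *Pla2g3*-/- (red squares). Open symbols are bounds, dashed lines mark 2-fold, and the *Pax5* probe without symbols was below background on all 4 arrays. In the left panel all vehicle values lie within 2-fold, while after AOM they run from -3.12 for *Ms4a1* to 3.14 for *Pigr* (dimmer probe, at its own locus).

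AOM pools were compared with the vehicle pool of the same genotype. In *Pla2g3*+/+, 4 members were over 2-fold lower after AOM (*Ms4a1*, *Cd79b*, *Cr2* and *Pigr*) and 1 was over 2-fold higher (*Prdm1*), where 22.4% of 17277 genes were lower and 15.1% higher. The log2 ratios were -2.24 for *Ms4a1*, -1.71 for *Cr2*, -1.51 for *Cd79b* and 1.77 for *Prdm1*. The dimmer *Cr2* probe gave -0.77, within 2-fold. *Pax5* had a bound of -0.98, which does not settle whether it passed 2-fold. *Cd79a* (-0.97), *Xbp1* (-0.93) and *Jchain* (-0.84) lay just within 2-fold. *Pigr* fell by 3.04 by the probe at its locus and by 1.27 by the repeat probe. In the pool labelled *Pla2g3*-/-, 6 members were over 2-fold lower (*Ms4a1*, *Cd79a*, *Cd79b*, *Cr2*, *Jchain* and *Xbp1*) and 1 higher (*Pigr*, by the repeat probe), where 15.1% of 16515 genes were lower and 9.65% higher. *Ms4a1* was at least 27.3-fold lower, *Cd79b* 17.4-fold, *Jchain* 13.4-fold, *Cd79a* 7.92-fold and *Cr2* 5.80-fold. *Xbp1* stood at the limit, with a log2 ratio of -1.001. *Prdm1* had a log2 ratio of -0.42 and *Pigr* by the probe at its locus one of 0.26, and *Pax5* had a bound of 0.61. The 75th percentile was 645.6 and 649.8 on the vehicle arrays and 1309 and 1169 on the AOM arrays, so the treatment ratios depended on the scaling more than the genotype ratios. Without scaling, the median of all genes moved up by 1.04 log2 units in *Pla2g3*+/+ and by 0.84 in *Pla2g3*-/-, whereas the genotype median moved by 0.01 with vehicle and by -0.16 after AOM. In *Pla2g3*+/+, *Jchain* (0.18), *Cd79a* (0.05) and *Xbp1* (0.09) then turned to just above 0, and *Cd79b* (-0.49), *Cr2* (-0.69) and *Pigr* by the repeat probe (-0.25) no longer passed 2-fold. In *Pla2g3*-/-, *Xbp1* (-0.15) no longer passed 2-fold and *Prdm1* (0.43) turned to above 0.

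Immunoglobulin transcripts are the product of these cells. The array carries 37 probes named for heavy or light chain genes, many in multigene families whose members a probe of 60 bases may not separate. With vehicle, 31 had a value, of which 2 rose and 2 fell past 2-fold in the pool labelled *Pla2g3*-/-, with a median log2 ratio of 0.11. Over 26549 probes, 2.12% were higher and 1.53% lower, with a median of -0.04. After AOM, 24 of 29 were over 2-fold lower, 1 was over 2-fold higher and 4 were within 2-fold, with a median of -2.66. Of the 29 values, 6 were bounds. *Igkv4-53* and *Igkv9-129*, counted within 2-fold, were at least 1.92-fold and 1.39-fold lower, which does not settle whether they passed. The higher probe, *Igkv4-55*, was also a bound, well above background only on the array labelled *Pla2g3*-/- after AOM. Over 28311 probes, 12.1% were lower and 14.1% higher, with a median of 0.03.

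Of the 5 brightest immunoglobulin probes, 4 were over 2-fold lower in that pool after AOM. The brightest, which the array names *Igh-VJ558*, lies on chromosome 12 from 114496985 to 114497044. Its signals were 168844 and 184838 with vehicle and 277299 and 37785 after AOM, 6.55-fold lower in the pool labelled *Pla2g3*-/-. After scaling, its log2 ratio of AOM over vehicle in *Pla2g3*+/+ was -0.30. Another *Igh-VJ558* probe beside it (114497090 to 114497149) was 9.64-fold lower, and one farther along (114498348 to 114498407) 24.6-fold lower. The remaining probes of that name lie apart from these, from 115725469 to 117158672. What part of the heavy chain locus the bright probes read was not derived, and the name may not describe it. *Ighv1-77* was 4.66-fold lower. *Iglv1*, a lambda light chain segment (chromosome 16, 19061905 to 19061964), behaved in another way with vehicle. Its signals were 11515 in *Pla2g3*+/+ and 44173 in *Pla2g3*-/- with vehicle, 3.81-fold higher, and 9576 and 4349 after AOM, 1.97-fold lower. In *Pla2g3*+/+ the immunoglobulin probes had a median of -0.34 for AOM over vehicle, against -3.02 in the pool labelled *Pla2g3*-/-. Without scaling, a setting added after the data were seen, these medians were 0.68 and -2.18. A probe that the array names *Ighg* was added here after its values were seen. It lies on chromosome 12 from 115170278 to 115170336, between the probes named *Ighv5-12* and *Ighv7-4*. Whether it reads IgG was not tested. Its signals were 109 and 97.6 with vehicle and 462.5 and 5.38 after AOM, the last not above background. It was at least 24.1-fold lower in the pool labelled *Pla2g3*-/- after AOM. The probes that the array names *Ighm* and *Igkc* were not well above background on any array.

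**Figure D3:**
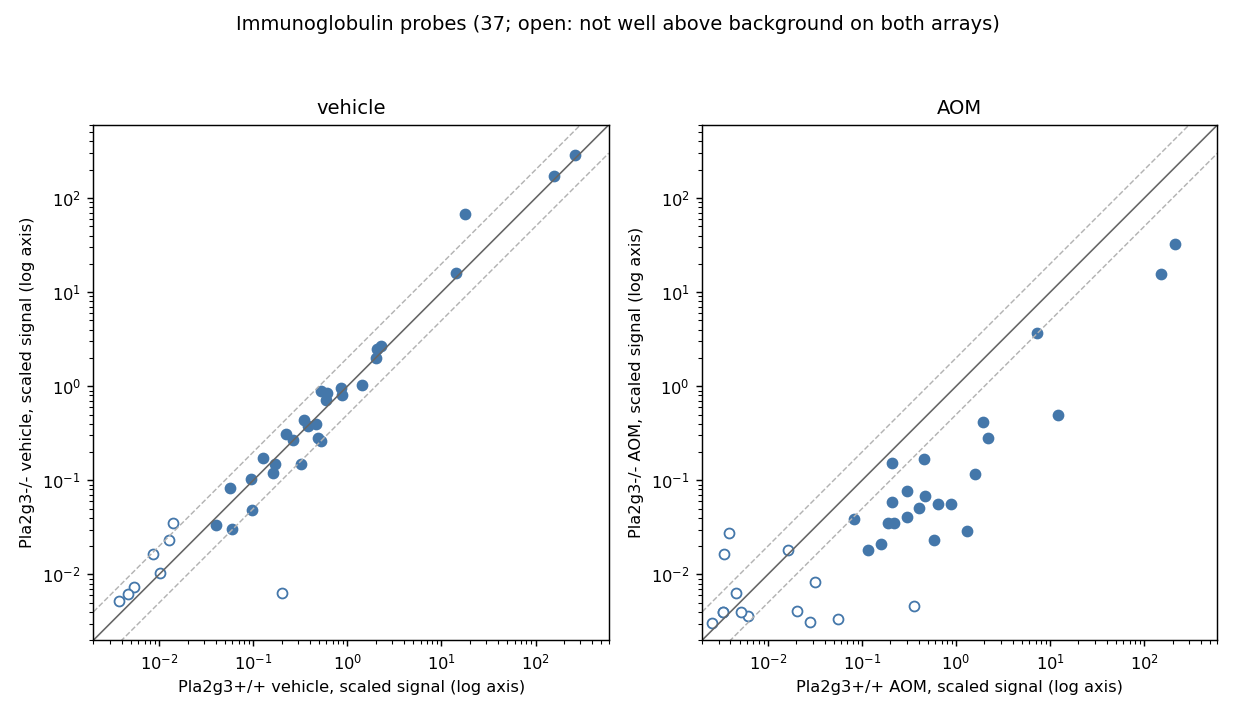
Scaled signal of the 37 immunoglobulin probes in the pool labelled *Pla2g3*-/- against that in *Pla2g3*+/+, with vehicle on the left and after AOM on the right, on log axes. The solid line marks equal signals, the dashed lines 2-fold, and open symbols probes not well above background on both arrays. With vehicle 27 of 31 probes with a value lie within the dashed lines. Symbols are drawn at the measured signal, also where the ratio is a bound. By ratio, 24 of 29 probes with a value were over 2-fold lower after AOM. *Igkv9-129* and the *Igkv4-53* probe with a value, within 2-fold as bounds, are also drawn below the lower dashed line.

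Other genes of the same cells were taken as lists, to be read against the shares of all genes past 2-fold, 12.9% lower and 15.1% higher after AOM and 1.32% and 1.93% with vehicle, and against medians of 0.03 and -0.02. Of 13 B cell surface and signaling genes, 12 had a value after AOM, and 6 were over 2-fold lower in the pool labelled *Pla2g3*-/-, none higher and 6 within 2-fold (median -1.12, with 5 bounds). The IgM receptor gene *Fcmr* was at least 5.47-fold lower, *Fcrla* at least 4.75-fold and *Cd72*, an inhibitory receptor of B cells, 4.17-fold. With vehicle, 0 of 13 passed 2-fold (median -0.25), and the values farthest from 0 were -0.72 for the BAFF receptor gene *Tnfrsf13c*, -0.69 for *Fcer2a* and -0.60 for *Fcrla*. Among 9 lineage transcription factors, 3 were over 2-fold lower after AOM and none higher, with a median of 0.08. *Pou2af1*, a coactivator in B and plasma cells, had signals of 811 and 72.6 and a log2 ratio of -3.32, *Tcf3* (E2A) one of -1.28 and *Irf4* one of -1.07. With vehicle, 0 of 9 passed, with *Bcl6* at -0.62, *Pou2f2* at -0.34 and *Pou2af1* at 0.25.

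Of 13 plasma cell genes, 5 were over 2-fold lower after AOM, 1 higher and 7 within 2-fold, with a median of -0.59. *Fkbp11* was counted within 2-fold by a bound of -0.35, which does not settle whether it passed. The log2 ratio was -2.89 for *Mzb1*, -2.61 for *Derl3* and -2.11 for *Eaf2*. *Mzb1*, which assists antibody secretion, had signals of 870 and 105, and *Derl3*, a factor of protein degradation in the endoplasmic reticulum, of 614 and 89.8. With vehicle, 1 of 13 passed 2-fold, *Eaf2* at -1.35, and the next were *Slamf7* at 0.58 and *Creld2* at -0.28 (median -0.10). Of the 15 genes of the endoplasmic reticulum and the unfolded protein response, which XBP1 serves in many cell types, 2 were over 2-fold higher after AOM, near the 15.1% of all genes. None was lower and 13 were within 2-fold, with a median of 0.11. The higher ones were *Ern2*, a sensor of goblet cells, at 1.58 and *Herpud1* at 1.09, followed by *Edem1* at 0.74. With vehicle 0 of 15 passed (median -0.14), and *Ddit3* (-0.39), *Dnajc3* (-0.36) and *Sec61a1* (0.26) were farthest from 0.

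Of 13 genes for IgA induction and homing found on the array, 11 had a value after AOM, with 2 over 2-fold higher, 4 lower and 5 within 2-fold (median -0.32), where 15.1% of all genes were higher and 12.9% lower. *Ccl28*, the epithelial chemokine that attracts IgA plasma cells, had signals of 1558 and 1192 with vehicle and 116 and 2319 after AOM, and its log2 ratio was 4.48. *Aldh1a1*, a retinaldehyde dehydrogenase, reached 3.37. *Madcam1*, the vascular ligand for homing to the gut, went the other way with signals of 1088 and 106 after AOM and a log2 ratio of -3.19. With vehicle, 0 of 11 passed 2-fold, and *Ccl28* (-0.40), *Tnfsf13b* (-0.29) and *Ccl25* (-0.29) were farthest from 0, with a median of -0.14. Of 10 lymphoid follicle genes on the array, 8 had a value after AOM, and 6 were over 2-fold lower, 1 higher and 1 within 2-fold (median -2.14). The homing receptor gene *Ccr7* had a log2 ratio of -3.82, *Ltb* one of -2.93 and *Ccr6* one of -2.57. With vehicle, 0 of 7 passed 2-fold, with a median of -0.13, where *Lta* (-0.46, a bound), *Ccr7* (-0.38) and *Cxcl13* (0.30) were farthest from 0. *Tnfsf13* and *Ccl21a* were not matched to a probe and were not analysed here.

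**Figure D4:**
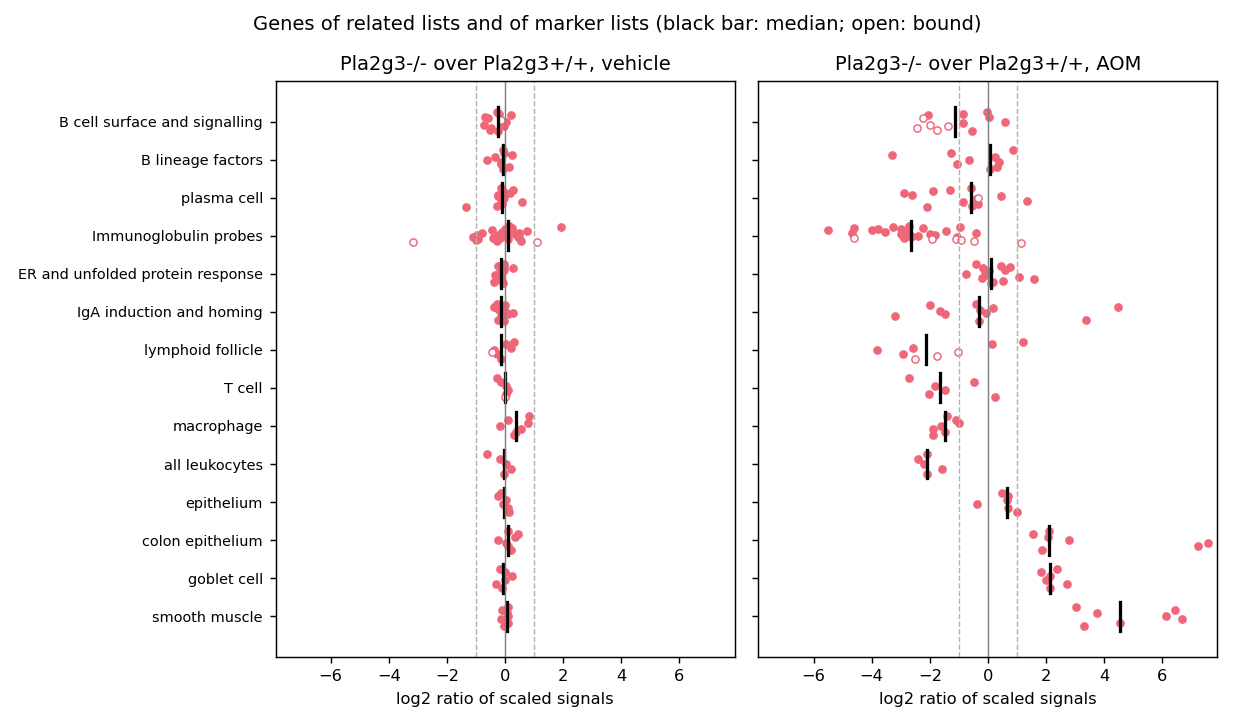
Log2 ratio of *Pla2g3*-/- over *Pla2g3*+/+ for each gene of the related lists, for the 37 immunoglobulin probes and for 7 marker lists of other cell types (pancreatic acinar genes are not drawn), with vehicle on the left and after AOM on the right. Each circle is a gene or probe, open circles are bounds, black bars are medians and dashed lines mark 2-fold. With vehicle the medians drawn run from -0.25 for B cell surface genes to 0.37 for macrophages, and after AOM from -2.66 for the immunoglobulin probes to 4.54 for smooth muscle.

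Markers of other cell types moved in the same AOM comparison. All 5 leukocyte markers were over 2-fold lower in the pool labelled *Pla2g3*-/- (median -2.10, summed level 1.998 against 8.30). The 7 macrophage markers were also all lower (median -1.48, 10.2 against 27.7), and 4 of 6 T cell markers were lower (median -1.65, 1.19 against 3.30), among them *Cd3d* at -2.73. Of the 4 B cell markers 3 were lower (median -2.62, 0.424 against 1.17), and these are the members *Ms4a1*, *Cd79a* and *Cd79b*. The other marker, *Cd22*, had a log2 ratio of -0.02, so this list only repeats the member values. The 5 plasma cell markers, which include *Jchain*, had a median of -2.61 with 4 lower (8.70 against 43.8). All 7 colon epithelium markers were over 2-fold higher (median 2.10), as were all 6 goblet cell markers (median 2.13, 418 against 96.0) and all 7 smooth muscle markers (median 4.54). Of 6 general epithelial markers, 0 passed 2-fold (median 0.67, 453 against 333.5). The part of these cell types in the member values was not tested. In *Pla2g3*+/+, AOM over vehicle gave medians of 1.27 for leukocyte markers and 1.204 for macrophage markers, but -0.53 for T cell markers, -1.24 for B cell markers, -0.97 for plasma cell markers, -3.22 for colon epithelium and -4.49 for smooth muscle. In the pool labelled *Pla2g3*-/-, the medians were -0.58 for leukocyte, -0.63 for macrophage, -1.88 for T cell (5 of 6 over 2-fold lower), -3.55 for B cell and -3.50 for plasma cell markers. Without scaling, these treatment ratios rise as that of *Jchain* does, from -0.84 to 0.18 in *Pla2g3*+/+ and from -3.745 to -2.90 in *Pla2g3*-/-. The T cell and plasma cell medians in *Pla2g3*+/+ would then lie above 0. The same holds for the leukocyte and macrophage medians in the pool labelled *Pla2g3*-/-.

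The genes with the profile most like a member's were found among 14781 genes well above background on all 4 arrays, members left out, by the distance between mean-centered log2 profiles over the 4 arrays. For *Cd79a* they were *H2-Oa* (distance 0.17 log2 units), *Arg2* (0.21), *Derl3* (0.25), *Cd3d* (0.32) and the light chain probe *Igk-V21* (0.35). *H2-Oa*, a B cell gene of antigen presentation, had genotype log2 ratios of -0.32 with vehicle and -2.53 after AOM. For *Jchain* they were *Cd3d* (0.25), *Derl3* (0.31), *Mzb1* (0.33), *Calcb* (0.33) and *Igk-V21* (0.35). For *Pigr* by the probe at its locus they were *Smtn* (0.14), *Celf6* (0.21), *Acta2* (0.22), *Trnp1* (0.25) and *Pkdcc* (0.25). *Smtn* and *Acta2* are smooth muscle genes, and *Smtn* had signals of 11700, 11355, 2752 and 24297 in the order of groups used above. By the repeat probe the nearest genes were *Fam161a* (0.08), *Disp2* (0.09), *Cracdl* (0.14), *Slc2a13* (0.15) and *Acss2* (0.15), none of which is among those of the other probe. A profile over 4 arrays is short, and genes of unlike cells can share it.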

How the data were processed

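RNA from colons was purified, amplified from 27.7 ng and labeled for one-color Whole Mouse Genome arrays, 1 pool per group. Spot intensity as deposited came from Agilent Feature Extraction 11.5.1.1, background-subtracted and detrended within the array and not scaled between arrays, with its error and flags. The series table that the authors deposited gives a ratio, each intensity over a constant of its array, on the linear scale. Groups were taken from the labels. No replicate pools were analysed here.

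Outlier spots were left out, log2 intensities of replicate spots were averaged (median SD 0.057 to 0.066 log2 units), and the 75th percentile of the array was subtracted. Between 64.8% and 69.4% of 43020 spots were well above background, and none was saturated. A signal not well above background was replaced by the lowest signal that was (10.7 to 17.1), or kept if higher, and treated as a bound. A pair below background was given no ratio. Genes were named through RefSeq (GRCm38.p6) for 31372 probes and represented by the brightest probe. Probe coordinates are on mm9 as in the array files. Whether a probe lies in an exon or UTR was not derived, since no annotation of that build was used here. The code was tested on simulated data with 200 changed genes.

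Members and lists were chosen with earlier results of these data known, and some list genes are not reported here and were left out of the list counts. Named were all members, 3 genes per list and genotype comparison with the largest ratio, the 5 brightest immunoglobulin probes and the 5 genes nearest in profile to *Cd79a*, *Jchain* and *Pigr*. Alternatives were quantile normalization, no scaling, the median, normexp with an offset of 50 in limma 3.58.1 (R 4.3.3), other rules for dim signals, the mean over probes, the deposited table, and 1.5-fold and 4-fold. The *Pigr* probe at its own locus and the immunoglobulin medians without scaling were added as alternatives after the data were seen. Python 3.11.15, pandas 2.3.3 and numpy 2.4.6 were used. The number of arrays, 1 per group, limits the precision.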

Additional observations from a re-analysis of the deposited data

Results flagged for a closer look

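*Pigr* by the repeat probe went past 2-fold in opposite directions with AOM in the 2 genotypes, with a log2 ratio of AOM over vehicle of -1.27 in *Pla2g3*+/+ and 1.07 in the pool labelled *Pla2g3*-/-. With 1 array in each group, the difference was not tested. By the probe at the *Pigr* locus the ratios were -3.04 and 0.26, and the second did not pass 2-fold. Without scaling, they were -0.25 and 1.92 by the repeat probe.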

How the results depend on the processing

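The direction of no member past 2-fold was turned by any alternative that was run. With vehicle, no member passed 2-fold under any scaling, background or probe setting, and at 1.5-fold 1 was lower. After AOM, the count of lower members, 6, lay between 4 and 6 over all settings. With normexp, where it was 4, *Ms4a1* (-0.92) and *Cr2* (-0.48) no longer passed. The count of higher members, 2, became 1 with normexp, with both signals required, with the mean over probes and at 4-fold, since *Pax5* was lost. For AOM over vehicle in *Pla2g3*+/+, the count of lower members, 4, became 1 without scaling, 2 with normexp, 8 at 1.5-fold and 1 at 4-fold. It became 5 with scaling by the median and with every signal used as it stands, where *Pax5* (-1.002 and -1.70) passed. The count of higher members there, 1, became 0 at 4-fold. In *Pla2g3*-/-, the count of higher members, 1, became 2 without scaling and at 1.5-fold, and 0 with the mean over probes, at 4-fold and by the *Pigr* probe at its own locus. The count of lower members there, 6, became 5 with quantile normalization, without scaling, with both signals required and at 4-fold, and 4 with normexp. *Xbp1* was lost with quantile normalization (-0.56), without scaling (-0.15) and with normexp (-0.52), and *Cr2* with normexp (-0.93). No paired analysis was possible because each group has 1 array. Signals near 10 to 17, as for *Pax5* and the dimmer *Cd79a* probe, allow bounds only.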
